A study of Mus musculus with 20 samples.

Results

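Keratins are the intermediate filament proteins of epithelial cells, and 8 keratin genes were followed here through the livers of mice given a cholestatic drug or its vehicle. The genes are Krt8, Krt18, Krt7, Krt19, Krt20, Krt23, Krt4 and Krt79, taken by symbol, and each had 1 probe set among the 16464 named genes of the array. They were chosen by role, and with their measured levels with ethinylestradiol and with its vehicle already known, so the comparison of ethinylestradiol with its vehicle is given for them as a description, with no test. A further 37 keratin genes were measured and serve as the rest of the family.

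All 4 groups were male C57BL/6 mice, 10 weeks of age at 21 to 27 g, and all were gavaged for 25 days. The EE2 group received ethinylestradiol, a synthetic estrogen, at 3.70 mg/kg in sunflower oil, and the oil group the sunflower oil alone. The CPZ group received chlorpromazine, an antipsychotic drug, at 10 mg/kg in PBS, and the PBS group the PBS alone, with 5 arrays in each of the 4 groups. The labels number the samples without saying that each is a separate mouse, so the tests rest on the spread from sample to sample, which may be technical.

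A keratin filament is built from pairs of 1 acidic type I and 1 basic type II chain, so a cell needs a partner of each type. Hepatocytes are known to make Krt8, type II, and Krt18, type I. Bile duct cells add Krt7, type II, and Krt19, type I. Krt20, type I, is best known from intestinal and urothelial lining, and Krt23, type I, from ductal and glandular epithelia. Krt4, type II, belongs to the lining of the mouth and oesophagus, where its known partner is Krt13, and Krt79, type II, to the upper hair follicle and sebaceous duct. Loss or mutation of Krt8 or Krt18 is known to make hepatocytes fragile, and Krt8 and Krt18 are the main proteins of Mallory-Denk bodies, the hepatocyte inclusions of toxic liver disease.

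Values are log2 RMA levels, a scale on which 1 unit is a doubling. The lower quartile of all named genes averaged 3.06 on the EE2 arrays and 3.16 on the other 15, and where a group lies close to that quartile the difference is a lower bound. Array medians averaged 4.65 with EE2 and 4.50 elsewhere, so shifts of the size of this gap depend on scaling. With EE2 the median was thus higher and the lower quartile lower. Centring each array on its median lowers all EE2 levels, including those near the lower quartile that already read lower. Falls of such genes with centred arrays partly come from this step. The number of arrays limits the precision. Alb, the albumin gene of hepatocytes, averaged 14.15 with EE2 and 14.16 with oil. With 1 array left out its difference ran from -0.02 to -0.001. It was 0.026 with quantile normalization (limma adjusted p = 0.606) and -0.17 with centred arrays (limma adjusted p = 7.16e-04). The last is of the size of the gap between array medians. In whole-liver RNA fewer cells of a type and less RNA per cell cannot be told apart.

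Krt4 and Krt79 stood near the lower quartile on all 15 arrays without EE2 and far above it on all 5 with EE2. On EE2 arrays 9, 13, 15, 17 and 18 Krt4 (Entrez gene 16682) read 10.19, 10.27, 10.22, 10.50 and 10.54. On oil arrays 2, 5, 6, 8 and 16 it read 3.33, 3.32, 3.36, 3.36 and 3.20. The CPZ arrays lay between 3.20 and 3.42 and the PBS arrays between 3.30 and 3.51, so the other 3 groups overlapped each other and none came near the EE2 arrays. The EE2 mean was 10.34 ± 0.17 (SD, n = 5) and the oil mean 3.31 ± 0.06, a difference of 7.03 (SE 0.07), or 131-fold as a lower bound.

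Krt79 (Entrez gene 223917) read 11.38, 10.96, 10.59, 11.01 and 11.15 on the same EE2 arrays. On the oil arrays it read 2.88, 3.31, 3.23, 3.22 and 2.87. CPZ arrays ranged from 3.09 to 3.64 and PBS arrays from 3.17 to 3.61. The difference was 7.91 (SE 0.13), or 241-fold as a lower bound, from 3.10 ± 0.21 to 11.02 ± 0.29 (SD, n = 5). The EE2 array with the highest Krt79, array 9, had the lowest Krt4, and the EE2 arrays were thus not ordered alike by these genes. By level over the 20 arrays the genes most like Krt4 were Rgs7bp (Pearson r = 0.9984), Adam19 (r = 0.9983) and Krt79 (r = 0.9980). Those most like Krt79 were Krt4, Adam19 (r = 0.9973) and Gng12 (r = 0.9972). These correlations describe the gap between 5 arrays and 15, and nothing finer. By deviations from the group means the nearest to Krt4 were Ccdc18 (r = 0.78), Pigv (r = 0.78) and Hes3 (r = 0.76), and to Krt79 Foxn1 (r = 0.82), Cubn (r = 0.80) and 6430571L13Rik (r = 0.77). Here and for Krt8 and Krt23 below, such genes are the highest of 16464 named genes over 20 arrays. Picking the highest of so many gives large r even among unrelated genes. These correlations were not tested, and no link is read from them.

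**Figure D1:**
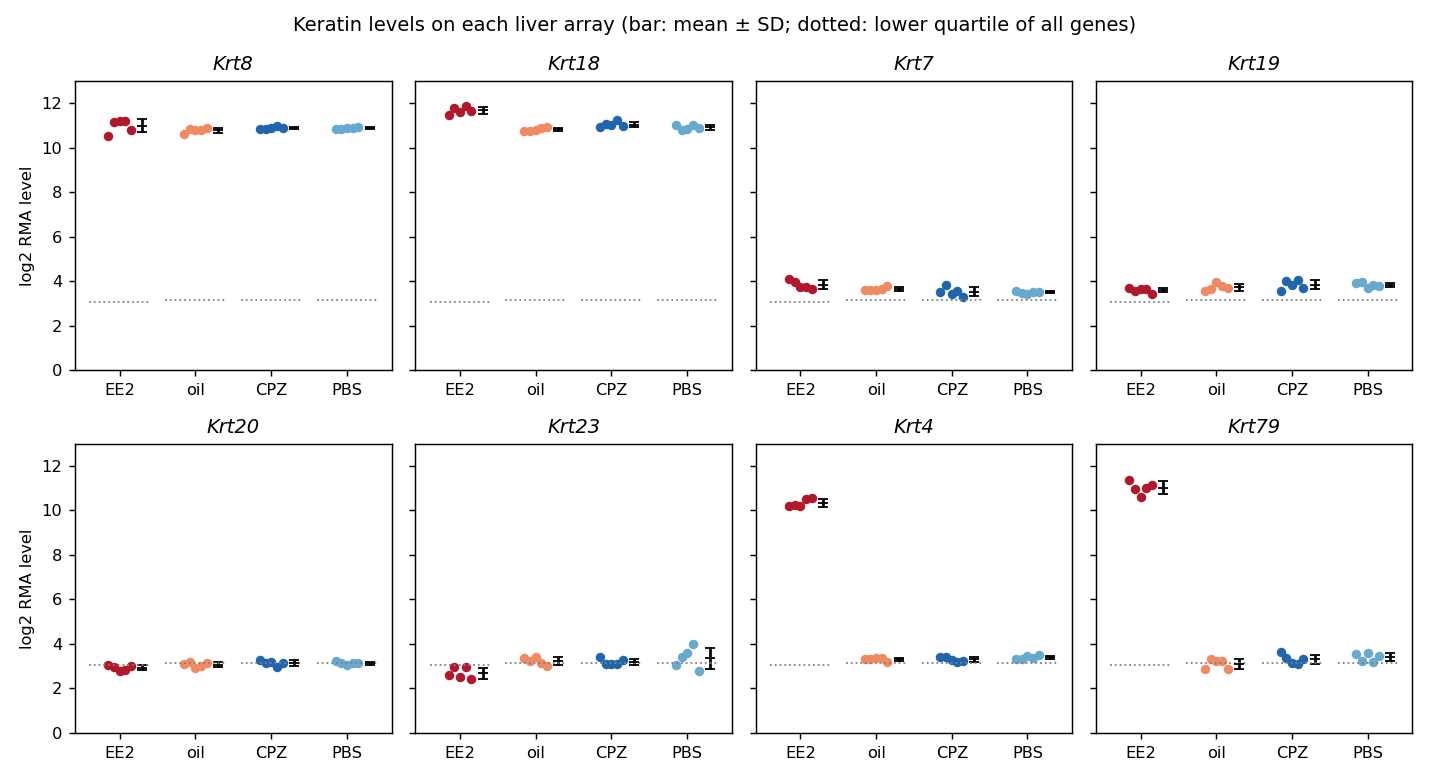
Log2 RMA level of each of the 8 keratins on every array, by group, with the group mean ± SD (n = 5) to the right of the points and the mean lower quartile of all genes as a dotted line. Krt4 and Krt79 lie near the dotted line in 3 groups and between 10.19 and 11.38 with EE2, while the other 6 genes keep to 1 part of the scale in all groups.

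The hepatocyte pair had unlike values with EE2. Krt18 (Entrez gene 16668) read 11.45, 11.79, 11.61, 11.90 and 11.63 on EE2 arrays 9, 13, 15, 17 and 18. It read 10.77, 10.75, 10.79, 10.87 and 10.93 on oil arrays 2, 5, 6, 8 and 16. All EE2 arrays lay above all oil arrays, and also above the highest CPZ array at 11.24 and the highest PBS array at 11.03. The means were 11.68 ± 0.17 and 10.82 ± 0.07 (SD, n = 5), a difference of 0.86 (SE 0.08, 1.81-fold).

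Krt8 (Entrez gene 16691) read 10.55, 11.14, 11.22, 11.21 and 10.81 on the same EE2 arrays and 10.60, 10.82, 10.80, 10.80 and 10.89 on the oil arrays. Arrays 13, 15 and 17 were above every oil array, array 18 lay among them, and array 9 lay below them all. The difference of 0.21 (SE 0.10) was of the size of the spread, with an SD of 0.29 with EE2 against 0.11 with oil, 0.05 with CPZ and 0.04 with PBS. Without EE2 array 9 it was 0.31, and with each array centred on its median 0.045. EE2 array 9 also had the lowest Krt18 of its group.

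Over all 20 arrays the deviations of Krt8 and Krt18 from their group means correlated at Pearson r = 0.64 (permutation p = 0.0164, two-sided, arrays permuted within groups) and Spearman rho = 0.55 (permutation p = 0.0252). Of the 28 pairs among the 8 keratins this was the strongest, and neither value passed after Benjamini-Hochberg adjustment over the pairs (permutation p adjusted to 0.458 and 0.535). Without the 2 arrays farthest in Krt8, EE2 9 and EE2 15, r was 0.67, and over the 15 arrays without EE2 it was 0.51. The genes nearest to Krt8 by these deviations were Prkd1 (r = 0.83), Nudt7 (r = 0.80) and Vopp1 (r = 0.79), and by level BC052040 (r = 0.77), Sharpin (r = 0.74) and Anks1 (r = 0.73).

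**Figure D2:**
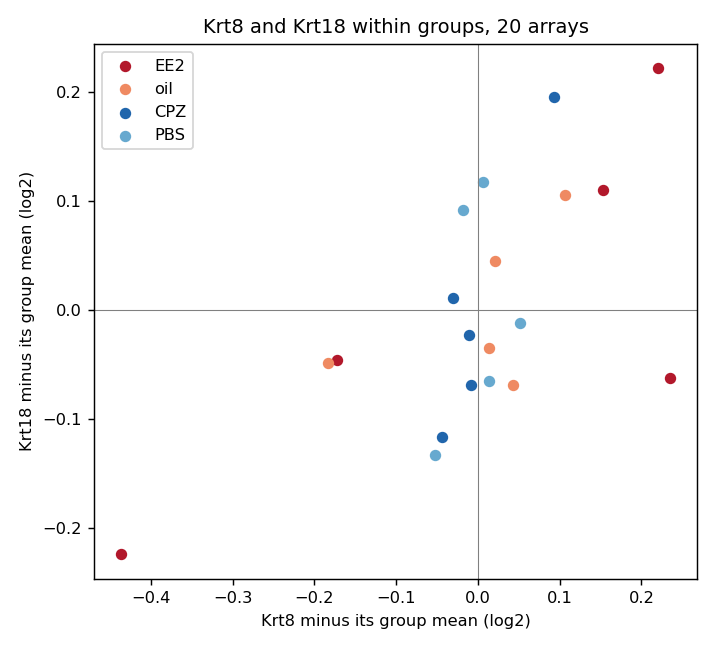
Deviation of Krt18 from its group mean against that of Krt8, both in log2 units, for 20 arrays coloured by group. The points run from lower left to upper right (r = 0.64), and the farthest at lower left is EE2 array 9.

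The bile duct and gut keratins stayed low in every group. Krt7 (Entrez gene 110310) ranged from 3.67 to 4.12 with EE2 and from 3.59 to 3.79 with oil, overlapping, with a difference of 0.18 (SE 0.09). Krt19 (Entrez gene 16669) ranged from 3.45 to 3.69 with EE2 and from 3.54 to 3.98 with oil, a difference of -0.13 (SE 0.09). Krt20 (Entrez gene 66809) ranged from 2.76 to 3.05 and from 2.90 to 3.18, a difference of -0.14 (SE 0.07). Each of these 3 differences lay within about the spread of its arrays, and with each array centred on its median they became 0.02, -0.29 and -0.30. Without EE2 array 9 the difference of Krt7 was 0.12, and without oil array 6 that of Krt19 was -0.067.

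Krt23 (Entrez gene 94179) read 2.61, 2.96, 2.50, 2.95 and 2.44 on EE2 arrays 9, 13, 15, 17 and 18. On oil arrays 2, 5, 6, 8 and 16 it read 3.38, 3.24, 3.43, 3.16 and 3.01. The groups did not overlap, with the highest EE2 array at 2.96 and the lowest oil array at 3.01, and the difference was -0.56 (SE 0.17). Both groups lay around or below the lower quartile, where levels carry little information. PBS arrays spread from 2.78 to 3.99, over the whole oil range, and 1 of them, array 20, read below the 2 highest EE2 arrays. By deviations Krt23 was nearest to Lrif1, Serinc5 and Tyms (r = 0.83 for each), and by level to Yars2 (r = 0.87), Serinc5 (r = 0.86) and A930003A15Rik (r = 0.86).

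Of the 8 keratins, 3 thus lay wholly above and 1 wholly below the oil arrays with EE2. Among all genes 14.6% lay wholly above and 17.2% wholly below, and nothing is read from the count, since the genes were picked with this comparison known.

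With chlorpromazine none of the 8 keratins passed the test, against 0.796% of all genes. This test, like each one below, was limma's with Benjamini-Hochberg adjustment over all named genes and a threshold of 0.05. At an unadjusted p under 0.05 the count was also 0 of 8, against 12.2% of all genes, and the CPZ and PBS arrays overlapped for each of the 8, where 2.98% of all genes did not overlap. Krt18 read 10.92, 11.05, 11.02, 11.24 and 10.97 on CPZ arrays 1, 3, 4, 11 and 12 and 11.01, 10.78, 10.85, 11.03 and 10.90 on PBS arrays 7, 10, 14, 19 and 20. Its difference of 0.13 had a 95% interval from -0.03 to 0.29 (limma adjusted p = 0.56). For Krt8 the difference was -0.01, with an interval from -0.21 to 0.20 (limma adjusted p = 0.991).

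For Krt4 the interval ran from -0.23 to 0.06 (limma adjusted p = 0.688) and for Krt79 from -0.39 to 0.17 (limma adjusted p = 0.821), each near the lower quartile in both groups, where a small change could not be seen. The differences were 0.04 for Krt7, -0.003 for Krt19, -0.001 for Krt20 and -0.16 for Krt23, with intervals from -0.15 to 0.22, -0.19 to 0.19, -0.14 to 0.14 and -0.50 to 0.19.

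The vehicles were compared as well, sharing the oil arrays with the EE2 comparison and the PBS arrays with the CPZ comparison. None of the 8 keratins passed limma's test, against 0.0486% of all genes. At an unadjusted p under 0.05 the count was 1 of 8, against 8.59% of all genes, and this was Krt79, at 3.10 with oil and 3.41 with PBS, a difference of -0.31 (95% interval -0.59 to -0.03, limma adjusted p = 0.52). Krt7 was the 1 of 8 whose groups did not overlap, from 3.59 to 3.79 with oil and from 3.42 to 3.56 with PBS, against 1.69% of all genes (difference 0.15, limma adjusted p = 0.676). By group mean the order was EE2, CPZ, PBS and oil for Krt18, EE2, PBS, CPZ and oil for Krt8, and EE2, PBS, oil and CPZ for Krt4. For these 3 genes the neighbours after EE2 in that order overlapped.

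Krt4, Krt79, Krt8 and Krt18 lie close together on chromosome 15, in the cluster of type II keratin genes, and Krt18 is the type I gene at its end. In the RefSeq annotation of GRCm38.p6 the protein-coding order runs Krt76, Krt4, Krt79, Krt78, Krt8 and Krt18, followed by Eif4b. Krt7 is on the same chromosome, and Krt19, Krt20 and Krt23 are on chromosome 11 with the other type I genes. Krt78 sits between Krt79 and Krt8 and averaged 3.24 with EE2 and 3.50 with oil. It fell by 0.26 (SE 0.08, limma adjusted p = 0.00812, 0.0535 after quantile normalization), while its neighbour Krt79 stood 7.91 higher. Krt76, on the other side of Krt4, averaged 2.71 and 2.81 (difference -0.10, limma adjusted p = 0.374, and -0.26, adjusted p = 0.0149, with centred arrays). Both Krt76 means lay below the lower quartile, where levels carry little information.

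Of the 19 genes from 6 before Krt4 to 6 after Krt18, 13 were measured. Without the 4 members, 2 of 9 rose and 3 of 9 fell with EE2, against 19.2% and 26.7% of all genes, and their differences ran from -0.34 to 0.47. Spryd3 rose by 0.47 (SE 0.09), Igfbp6, an insulin-like growth factor binding protein gene, rose by 0.41 (SE 0.12), and Tns2, a tensin gene, fell by 0.34 (SE 0.12). Eif4b, a translation initiation factor gene directly after Krt18, averaged 8.86 and 8.89. None of the 9 passed with CPZ.

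**Figure D3:**
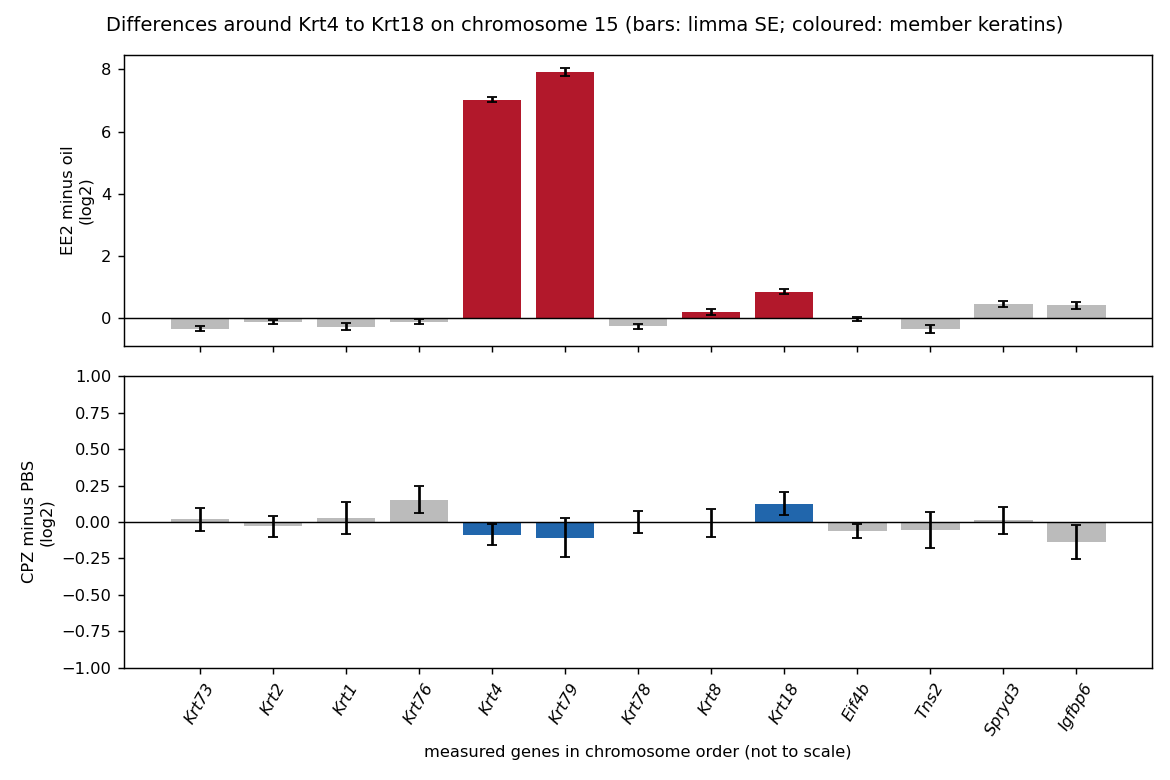
Difference of group means in log2 units for the 13 measured genes around Krt4 to Krt18 in chromosome order, EE2 minus oil above and CPZ minus PBS below on a finer scale, with limma SE as error bars and the 4 member keratins coloured. With EE2 the bars of Krt4 and Krt79 reach 7.03 and 7.91, and those of the other genes stay between -0.34 and 0.86.

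The promoters of 4 neighbours in this stretch are shown because their genes differ so much in their values: Krt79 near the lower quartile without EE2, Krt78 low throughout, and the hepatocyte pair Krt8 and Krt18 high throughout. Each window runs from 250 bases before to 50 after the gene's start in RefSeq on GRCm38.p6 (6 of the 8 members matched, not Krt4 and Krt19). Capitals mark GGTCA, 1 arm of an estrogen response element, and ATAAA, letters of a TATA-like box, on either strand. Krt79 is from the minus strand at chr15:101940275-101940574, Krt78 from the minus strand at chr15:101954238-101954537, Krt8 from the minus strand at chr15:102004293-102004592 and Krt18 from the plus strand at chr15:102027966-102028265.
Krt79: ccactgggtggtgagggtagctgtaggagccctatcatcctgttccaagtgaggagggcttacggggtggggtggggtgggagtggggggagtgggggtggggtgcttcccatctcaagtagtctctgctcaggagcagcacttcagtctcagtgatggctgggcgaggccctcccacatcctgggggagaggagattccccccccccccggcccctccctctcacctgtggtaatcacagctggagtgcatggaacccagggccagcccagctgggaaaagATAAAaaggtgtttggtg
Krt78: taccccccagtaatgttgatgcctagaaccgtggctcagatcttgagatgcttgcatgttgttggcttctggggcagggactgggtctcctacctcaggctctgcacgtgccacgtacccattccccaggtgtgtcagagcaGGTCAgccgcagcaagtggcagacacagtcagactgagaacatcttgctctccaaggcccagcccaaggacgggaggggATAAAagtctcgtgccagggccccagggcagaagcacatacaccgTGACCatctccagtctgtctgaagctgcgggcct
Krt8: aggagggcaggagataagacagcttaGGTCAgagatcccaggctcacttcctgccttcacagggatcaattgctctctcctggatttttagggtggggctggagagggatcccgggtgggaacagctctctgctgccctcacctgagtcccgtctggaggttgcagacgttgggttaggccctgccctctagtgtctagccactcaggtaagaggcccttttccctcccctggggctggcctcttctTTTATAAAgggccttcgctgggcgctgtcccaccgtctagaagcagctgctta
Krt18: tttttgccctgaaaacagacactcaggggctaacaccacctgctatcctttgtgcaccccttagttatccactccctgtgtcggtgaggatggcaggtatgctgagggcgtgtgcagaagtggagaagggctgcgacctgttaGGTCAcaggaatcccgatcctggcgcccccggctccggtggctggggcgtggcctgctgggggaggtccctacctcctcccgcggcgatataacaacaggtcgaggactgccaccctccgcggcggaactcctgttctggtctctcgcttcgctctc
The arm GGTCA was found at 0 places in Krt79, 2 in Krt78, 1 in Krt8 and 1 in Krt18, and 40.5% of 32817 promoters of this length hold it. ATAAA was found at 1 place in Krt79 and in Krt78, at 2 overlapping places on opposite strands in Krt8 and at 0 in Krt18, where 40.0% of promoters hold it. The match lay before the annotated start in Krt78, across it in Krt8 and after it in Krt79. The Krt18 window holds the letters tataa before its start, which a search for ATAAA does not find. These counts therefore do not show which of the 4 genes has a TATA box. The full element, GGTCA then NNN then TGACC on 1 strand, which contains the arm, was in none of these 4 windows and is in 0.0701% of promoters. The AP-1 motif TGANTCA was in none of the 4 and is in 7.81%. A match is a description of letters in this window only.

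The rest of the family did not share the pattern of Krt4 and Krt79. Of the 37 other keratins 0 rose and 14 fell with EE2, which is 37.8% against 26.7% of all genes. Among the lowest 30% of genes by level, which hold 26 of the 37, 3.95% rose and 20.3% fell. That level is the mean over all 20 arrays, so a low gene that rises far with EE2 leaves this set. The share of 3.95% is therefore partly set by the choice of genes. For the 37 the differences ran from -0.60 to 0.004 with a median of -0.16, against -0.07 over all genes. Of the 37, 35 averaged below 5. Krt10, the main type I keratin of the upper epidermis, fell by 0.60 (SE 0.11, limma adjusted p = 1.30e-04) from 5.46 to 4.86. Krt42 fell by 0.35 (SE 0.08), Krt75, a hair follicle keratin, fell by 0.34 (SE 0.07) and Krt73, a keratin of the inner root sheath, fell by 0.33 (SE 0.08). Krt75 averaged 2.71 with EE2 and 3.04 with oil, below the lower quartile, where levels carry little information. The number that fell was 6 with quantile normalization, 34 with each array centred on its median, and 9 without EE2 array 15 or 18. It was 7 once the lowest 30% of genes by level were dropped. That step removes 26 of the 37, so this count has a smaller base.

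The partners and companions of Krt4 in squamous epithelium stayed at low levels. Krt13 averaged 2.71 with EE2 and 2.94 with oil, and fell by 0.24 (limma adjusted p = 0.0416, 0.199 with quantile normalization, 0.0626 with only the 10 arrays of the comparison, and between 0.0683 and 0.13 without oil array 2 or 8 or EE2 array 13, 15 or 17). Krt5, the type II keratin of basal cells, averaged 3.41 and 3.74 and fell by 0.34 (limma adjusted p = 0.0287, 0.0694 with quantile normalization, and between 0.0505 and 0.0731 without oil array 5 or 6 or EE2 array 15, 17 or 18). Krt14, the type I partner of Krt5, averaged 2.74 and 2.82 (difference -0.08, limma adjusted p = 0.223). Its difference was 0.002 with quantile normalization and -0.24 (limma adjusted p = 5.89e-04) with centred arrays. The means of Krt13 and Krt14 lay below the lower quartile in both groups, where levels carry little information. With CPZ 0 of the 37 other keratins passed limma's test, and 1 of 37 had an unadjusted p under 0.05, beside 0.796% and 12.2% of all genes.

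**Figure D4:**
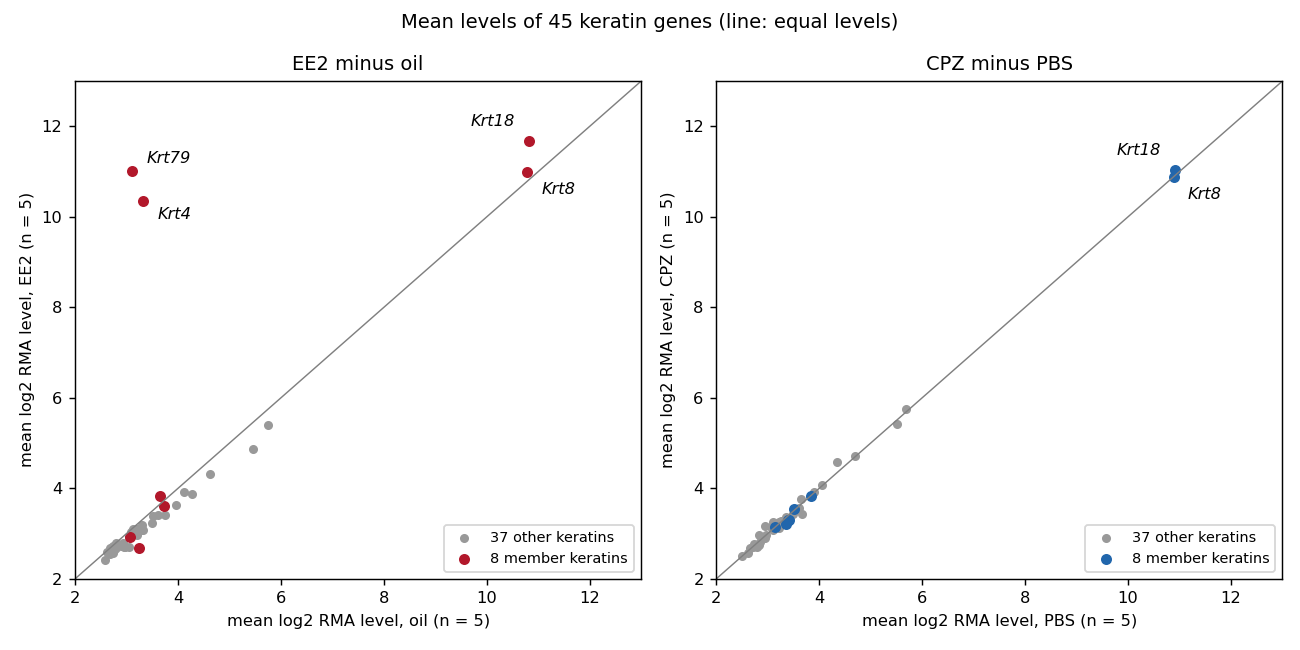
Mean log2 RMA level of 45 keratin genes with the drug against its vehicle (n = 5 arrays each), EE2 and oil at left and CPZ and PBS at right, with a line of equal levels and the 8 member keratins coloured. Krt79 and Krt4 stand alone at upper left with EE2, and with CPZ the 45 genes lie along the line.

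Squamous genes outside the keratin family were also read, from a list of 34 genes of which 30 were measured. This list and those that follow were written with earlier results of these data known, so their counts and p-values are descriptive. With EE2 3 of 30 rose and 2 of 30 fell, with a list median of -0.07, beside 19.2% and 26.7% of all genes. Ly6d, a surface protein gene known from stratified epithelium and from B cell precursors, rose by 4.75 (SE 0.19, limma adjusted p = 3.54e-14), from 3.91 ± 0.28 with oil to 8.65 ± 0.49 with EE2 (SD, n = 5). Sprr1a, a cornified envelope gene, rose by 0.74 (SE 0.21, limma adjusted p = 0.00712). Its EE2 arrays ranged from 3.79 to 5.56 and its oil arrays from 3.71 to 3.81, so the groups overlapped, and the difference was 0.48 without EE2 array 17. Ppl, the periplakin gene, rose by 0.44 (SE 0.14, limma adjusted p = 0.0126, 0.0661 with centred arrays). Ivl, the involucrin gene of the cornified envelope, fell by 0.24 (SE 0.06), from 3.09 to 2.85. Both means lay below the lower quartile, where levels carry little information. The number that rose was 6 with quantile normalization, and the number that fell was 17 with centred arrays, 5 without oil array 5 and 4 without EE2 array 9 or CPZ array 11. The summed linear level of the 30 genes ran from 616 to 887 with EE2 and from 369 to 397 with oil, and without Ly6d from 352 to 373 and from 353 to 380. Of the 30 genes 18 lay in the lowest 30% of levels.

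Of 24 measured cholangiocyte markers 5 rose and 9 fell with EE2, where 19.2% of all genes rose and 26.7% fell, and the list median was -0.05 beside -0.07 over all genes. Tspan8, a tetraspanin gene, rose by 3.58 (SE 0.10) from 3.18 to 6.76, and Prom1, the prominin gene, by 1.70 (SE 0.21). Epcam, an adhesion molecule of duct cells, fell by 0.47 (SE 0.09) from 4.10 to 3.63, Dsg2, a desmosomal cadherin that hepatocytes share, fell by 0.51 (SE 0.05), and Ppp1r1b fell by 1.37 (SE 0.17). Sox9, the transcription factor of duct and progenitor cells, averaged 4.21 with EE2 and 4.25 with oil (limma adjusted p = 0.774). The summed linear level of the list ran from 2451 to 2805 with EE2 and from 2963 to 3329 with oil, while Krt7 and Krt19 gave overlapping groups. Part of the fall of this sum was that of Dsg2, at a mean log2 level of 8.86 with EE2 and 9.37 with oil.

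Markers of other epithelia that could carry keratins were read against the same shares of all genes, 19.2% that rose and 26.7% that fell. Of 12 mesothelial markers 1 rose (Bnc2, by 1.76, SE 0.11) and 1 fell (Slc9a3r1, fell by 0.48, SE 0.06, a gene that hepatocytes express). Their sum ran from 1475 to 1720 with EE2 and from 2040 to 2562 with oil. Most of this sum was Slc9a3r1, at a mean log2 level of 10.54 with EE2 and 11.02 with oil, so its fall is not read as mesothelial. Of 9 stomach and forestomach markers 3 fell, among them Capn9, which fell by 0.38 (SE 0.09) and averaged 2.95 with EE2 and 3.32 with oil, around the lower quartile. The sum of these markers ran from 94.7 to 105 with EE2 and from 99.97 to 113 with oil. Of 8 urothelial markers 1 fell (Foxq1, fell by 1.08, SE 0.39, limma adjusted p = 0.0273, a difference of -0.72 without oil array 16, and adjusted p between 0.0521 and 0.0933 without oil array 8 or 16 or EE2 array 15 or 18), and of 8 gallbladder markers 1 fell (Hoxb2, fell by 0.39, SE 0.08). With centred arrays 9, 7, 6 and 7 of these 4 lists fell.

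Of 11 intestinal markers 4 rose and 2 fell (6 with centred arrays), beside 19.2% and 26.7% of all genes, and those that rose include genes liver also expresses. Tff3, a trefoil peptide gene, rose by 5.09 (SE 0.51), Apoa4, an apolipoprotein gene, by 1.93 (SE 0.17), and Fabp2, a fatty acid binding protein gene, by 0.82 (SE 0.11). The level of Tff3 varied without EE2, with a mean of 7.03 with oil and 8.88 ± 1.52 (SD, n = 5) with PBS. Its highest PBS array read 11.20 and its lowest EE2 array 11.88. The list median was -0.14, and most of the summed level came from the 4 genes that rose. That sum ran from 10321 to 13577 with EE2 and from 3483 to 3806 with oil, so it moved with Krt4, Krt79 and Krt18, and its part in their levels was not tested. The same holds for leukocyte markers, of which 10 of 11 rose and 0 fell with EE2, beside those shares, with a sum from 5274 to 7045 against 1659 to 2055. Csf1r rose by 1.80 (SE 0.13), Ptprc by 1.94 (SE 0.14) and Ms4a1 by 1.99 (SE 0.13).

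Of 10 hepatocyte markers 3 rose and 4 fell with EE2 (1 rose with centred arrays), beside 19.2% and 26.7% of all genes. Their sum ran from 85087 to 87463 with EE2 and from 85101 to 87321 with oil. Tat, a tyrosine aminotransferase gene, rose by 1.09 (SE 0.15) and Apoa1, the main apolipoprotein of HDL, fell by 0.28 (SE 0.04). Alb gave the highest value in the data, so this sum rests on genes at the top of the scale.

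**Figure D5:**
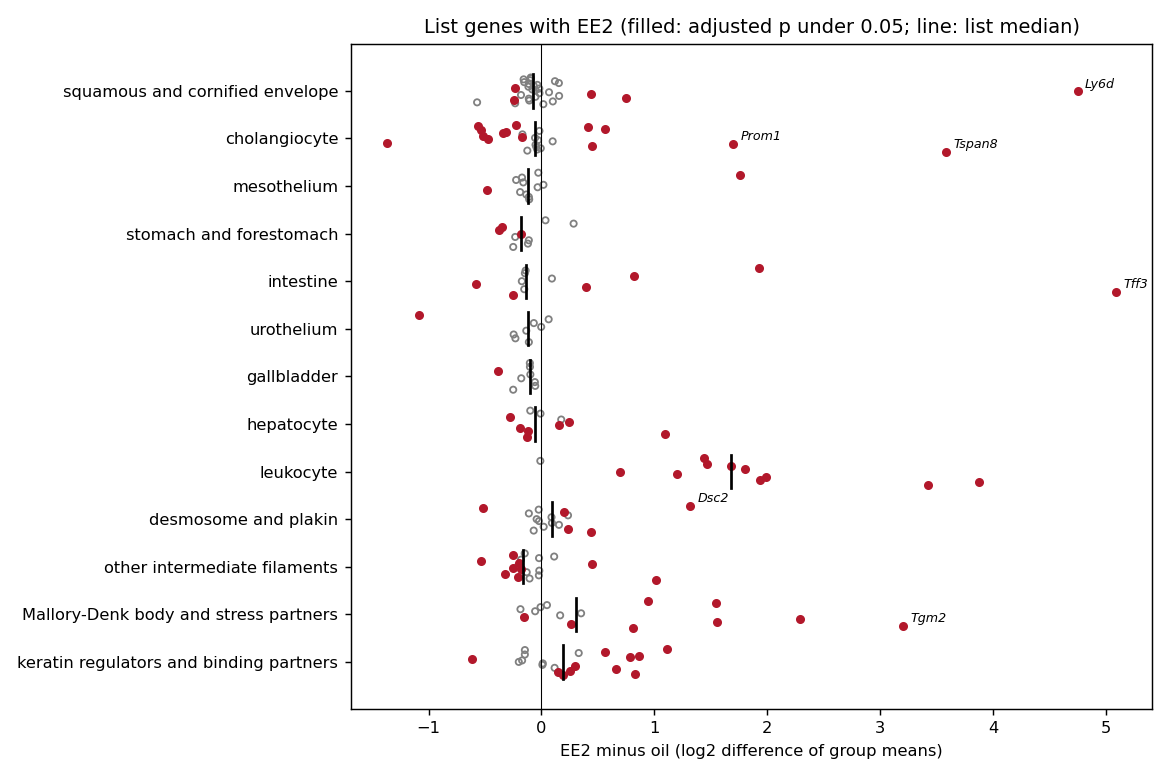
EE2 minus oil difference of group means, in log2 units, for each measured gene of 13 lists, filled where limma's adjusted p is under 0.05, with the list median as a line. Ly6d, Tff3, Tspan8 and Tgm2 stand far to the right of their lists, and the leukocyte list as a whole has its median at 1.68.

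Keratin filaments end in desmosomes and are held there by plakins, and of 15 measured genes of these structures 4 rose and 1 fell with EE2, beside 19.2% and 26.7% of all genes. Dsc2, a desmosomal cadherin, rose by 1.32 (SE 0.11, limma adjusted p = 5.71e-09) while its relative Dsg2 fell by 0.51. Pkp4, a plakophilin gene, rose by 0.24 (SE 0.05), and this call was lost with centred arrays (adjusted p = 0.16), where 1 gene rose and 5 fell. Of 18 other intermediate filament genes 2 rose and 7 fell (14 with centred arrays), beside the same shares, and 9 of the 18 lay in the lowest 30% of levels. Vim, the filament gene of mesenchymal cells and leukocytes, rose by 1.01 (SE 0.13) beside the leukocyte markers above, and Lmna, a nuclear lamin gene, by 0.45 (SE 0.06), while Nes, known from progenitor cells, fell by 0.32 (SE 0.07) and Iffo2 fell by 0.54 (SE 0.11).

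Of 14 measured genes of Mallory-Denk bodies and their stress partners 7 rose and 1 fell, beside 19.2% and 26.7% of all genes, with a list median of 0.30. This list and that of the regulators below were written with earlier results of these data known. Nothing is therefore read from their counts, and the p-values of their genes are descriptive. Tgm2, a transglutaminase known to crosslink Krt8 in these bodies, rose by 3.20 (SE 0.11, limma adjusted p = 1.48e-15) from 9.34 to 12.55. Nqo1, a detoxifying reductase, rose by 2.29 (SE 0.17), S100a6, a calcium-binding protein gene, by 1.55 (SE 0.15), and Anxa5, an annexin gene, by 1.54 (SE 0.09). The 1 that fell, Nbr1, named after its values were seen, differed by -0.16 and was not called with only the 10 arrays of the comparison or without oil array 5 or 6 or EE2 array 17 or 18. Of 19 regulators and binding partners of keratins 10 rose and 1 fell (5 and 5 with centred arrays), beside the same shares. Ywhaq, a 14-3-3 protein gene, rose by 0.83 (SE 0.08), Fosl2, an AP-1 subunit, by 0.86 (SE 0.12), and Stat3 by 0.66 (SE 0.11). The 1 that fell, Junb, also named after its values were seen, was not called without oil array 6 or 8 or EE2 array 13 or 18.

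With CPZ, 3 of the 181 measured list genes passed limma's test, and 24 had an unadjusted p under 0.05, beside 0.796% and 12.2% of all genes. The 3 were the macrophage genes Cd68, higher by 0.79 (SE 0.16, limma adjusted p = 0.0195), and Adgre1, higher by 0.63 (SE 0.14, limma adjusted p = 0.0325), and Apoa4, higher by 0.78 (SE 0.17, limma adjusted p = 0.0374). None of the 3 was called with only the 10 CPZ and PBS arrays in the model, without PBS array 7 or without PBS array 14. Without PBS array 19 or CPZ array 1, 3 or 11 the count of list genes called higher was 1, and without CPZ array 4 it held 1 leukocyte gene, no intestinal gene and 1 keratin regulator. Of the squamous, duct, desmosomal and Mallory-Denk lists none passed, with 0 of 30, 0 of 24, 0 of 15 and 0 of 14. Iffo2, of the other intermediate filaments, was not called, but its CPZ arrays (6.38 to 6.42) all lay below its PBS arrays (6.68 to 7.13). Among all genes 2.98% did not overlap in this comparison.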

How the data were processed

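Liver RNA was measured on 20 Affymetrix arrays in 4 groups of 5. The deposited values are log2 levels that the authors summarised by RMA, per the submitters' processing notes, with 1 probe set per Entrez gene. For the probe definition's version and the genome build, the sources used here say nothing, nor do they name the arrays that RMA normalized jointly. Of 17306 probe sets 16464 carried 1 gene symbol, 0 several, and 842 are unnamed here and were left out. Values were used as deposited, with no filter.

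One limma model (R 4.3.3, limma 3.58.1, lmFit and eBayes with default settings) of 4 group means was fitted to all named genes, with 16 residual and 4.25 prior degrees of freedom. Adjusted p-values are two-sided, by Benjamini-Hochberg over all named genes. Correlations of members used 100000 permutations within groups. The model was tested on simulated data. The members and the 13 gene lists, written from general knowledge, were chosen with earlier results of these data known. Named genes are the members, up to 4 called genes of a list with the smallest p, up to 4 called other keratins in each direction, chromosome neighbours and a few fixed markers. Alternatives were quantile normalization, centring, a filter on the lowest 30% of levels, another prior, array weights, only the 10 arrays of a comparison, and leaving out each array. Figures were drawn with Python 3.11.15 and matplotlib 3.10.9.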

Additional observations from a re-analysis of the deposited data

Results flagged for a closer look

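In 15 of 252 groups of 5 arrays, over 63 named genes, 1 array stood apart from the other 4 by Dixon's 95% criterion, where chance gives about 1 in 20 groups. For the 8 keratins this was 2 of 32 groups. Krt8 read 10.97 on CPZ array 11, against 10.83 to 10.87 on the other CPZ arrays. Krt4 read 3.20 on oil array 16, against 3.32 to 3.36. Among the other genes the array apart was oil array 16 for Ly6d (3.43), oil array 8 for Ms4a1 (4.12), EE2 array 15 for Fabp2 (11.30), and EE2 array 17 for Nes (3.89) and Capn9 (2.84). It was CPZ array 3 for Nes (3.92) and Krt5 (4.24), CPZ array 4 for Tat (11.51) and Fosl2 (4.51), and CPZ array 11 for Sprr1a (3.54) and Clec4f (9.65). It was PBS array 7 for Nes (4.02) and PBS array 19 for Pkp4 (9.30).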

How the results depend on the processing

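No paired analysis was possible because no number is shared by samples of different groups. For the EE2 comparison, centring each array on its median moved the median EE2 difference of all genes from -0.07 to -0.23, the genes called with EE2 from 7560 to 11846, and the share of calls that were higher from 41.9% to 17.4%. It moved the EE2 difference of Krt4 to 6.87, of Krt18 to 0.70, of Krt7 to 0.0243, of Krt19 to -0.29 and of Krt20 to -0.30, the other keratins that fell from 14 to 34, and the list genes that fell to 90. The other keratins that fell were 6 with quantile normalization and 9 to 15 with 1 array left out. They were 7 without the lowest 30% of genes, a filter that removes 26 of the 37. Of the 8 keratins 6 passed this filter. It uses the mean over all 20 arrays, so Krt4 and Krt79 entered it with their high EE2 levels. With quantile normalization Krt14 turned to 0.00226 and Alb to 0.0264 with EE2, and with centred arrays Alb gave -0.17 (adjusted p = 7.16e-04). The genes called with CPZ were 131 as reported, 237 with array weights, 64 with only the 10 arrays of the comparison, and 47 to 158 with 1 array left out. Those called between the vehicles were 8 as reported, 13 with an intensity trend and robust prior, 0 with only 10 arrays, and 2 to 19 with 1 array left out. Of list genes with CPZ, 1 intermediate filament gene was lower in place of 0 under quantile normalization, centring, the low filter, the robust prior and array weights. With only 10 arrays 1 such gene was also lower, and 0 list genes were higher in place of 3. With 1 array left out 0 to 4 were higher and 0 to 1 lower. None of the 8 keratins was called with CPZ or between the vehicles under any of these alternatives. Small CPZ differences changed sign: with array weights Krt19 gave 0.00851 and Krt20 0.0258, and with 1 array left out Krt8 ran from -0.0287 to 0.00757, Krt7 from -0.0395 to 0.0922, Krt19 from -0.0592 to 0.0655, Krt20 from -0.0354 to 0.0445 and Krt23 from -0.30 to 0.000207. Krt23 ran from -0.26 to 0.0423 between the vehicles, and Sox9 from -0.0933 to 0.0320 with EE2. Levels near the lower quartile limit what can be seen for Krt4, Krt79, Krt20 and Krt23 without EE2.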
